A study of Mus musculus with 10 samples.

Results

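The 10 genes described here are those by which the ovarian surface epithelium is usually recognised: the keratin genes Krt7, Krt8, Krt18 and Krt19, the uroplakin genes Upk1b and Upk3b, the mesothelial surface protein genes Msln, Lrrn4 and Muc16, and the cadherin gene Cdh1. They were taken by symbol from a table of 55487 mouse genes, each symbol matched 1 row, and all 10 were among the 18956 genes that passed the filter on low counts. RNA was sequenced from whole ovaries of C57BL/6J mice in 3 groups: 4 ovaries of Control mice aged 8 weeks, 3 of Aged mice and 3 of Aged+CF mice, the older mice being 11 months old by the labels and slightly younger by the study's methods. The Aged+CF mice had received 200 µL of CEFFE, a cell-free protein extract of fat tissue, at 3 µg/µL every 2 days for 2 weeks, and by the methods the other mice received saline. All mice, controls included, had been given 10 IU of PMSG, a gonadotropin that drives follicles to grow, 48 h before the ovaries were collected. Each ovary is named by its group and the number in its label (Control 31, 32, 33 and 34, Aged 31, 33 and 34, Aged+CF 30, 32 and 34). The labels do not say that each library is from a separate mouse, so p-values measure the spread between these samples.

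The ovarian surface epithelium is a thin layer of flat to cuboidal cells, continuous with the mesothelium of the abdominal cavity, that covers the ovary. It is torn at each ovulation and closes again by division and migration of its cells. Its cells hold the keratin filaments of simple epithelia together with proteins of mesothelial membranes, and it makes up a small share of the RNA of a whole ovary, most of which comes from granulosa, theca, luteal and stromal cells. In RNA from a whole ovary, fewer surface cells and less RNA of these genes per cell cannot be told apart.

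On GRCm38, in the GENCODE M21 annotation, 3 of the 4 keratin genes lie on chromosome 15. Krt8 (ENSMUSG00000049382, chr15:101996698-102004482, minus strand) and Krt18 (ENSMUSG00000023043, chr15:102028180-102032027, plus strand) are neighbours separated by 23697 bases, and their proteins pair with each other to form 1 filament. Krt7 (ENSMUSG00000023039) lies at chr15:101411043-101430313 and Krt19 (ENSMUSG00000020911) at chr11:100140810-100148665. Upk1b (ENSMUSG00000049436) lies at chr16:38773184-38800328, Upk3b (ENSMUSG00000042985) at chr5:136038496-136046487, Msln (ENSMUSG00000063011) at chr17:25748613-25754378, Lrrn4 (ENSMUSG00000043110) at chr2:132868305-132880891, Muc16 (ENSMUSG00000109564) at chr9:18495455-18674530 and Cdh1 (ENSMUSG00000000303) at chr8:106603351-106670246. The strand setting of the counting is not given in the sources used here, and 3 members overlap a gene on the opposite strand: Krt8 overlaps Gm36026 (0 to 5 counts per ovary), Krt7 overlaps Gm671 (0 to 7 counts) and Muc16 overlaps Gm25295 (0 counts). Krt8 also has a pseudogene, Krt8-ps, with 29 to 82 counts per ovary, so a few of its reads may have been split.

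RefSeq promoter sequences (GRCm38.p6) were available for 6 members, and 4 are printed because these genes carry the contrasts described next. Upk3b stands for the members that vary together, and Muc16 showed the widest range. Krt8 and Krt18 are the neighbours that came apart, most of all in Aged 33. Each is the stretch of the 250 bases before the RefSeq start that lies outside the annotated gene, read 5′ to 3′ on the gene's strand, and capitals mark E-box letters (CANNTG). The stretches lie at chr5:136038246-136038495 (plus strand) for Upk3b, chr9:18674604-18674853 (minus strand) for Muc16, chr15:102004483-102004592 (minus strand) for Krt8 and chr15:102027966-102028179 (plus strand) for Krt18.
Upk3b: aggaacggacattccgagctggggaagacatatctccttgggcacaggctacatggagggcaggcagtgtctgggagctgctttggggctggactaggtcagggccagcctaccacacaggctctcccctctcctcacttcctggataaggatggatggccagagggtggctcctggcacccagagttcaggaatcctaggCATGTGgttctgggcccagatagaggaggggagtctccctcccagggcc
Muc16: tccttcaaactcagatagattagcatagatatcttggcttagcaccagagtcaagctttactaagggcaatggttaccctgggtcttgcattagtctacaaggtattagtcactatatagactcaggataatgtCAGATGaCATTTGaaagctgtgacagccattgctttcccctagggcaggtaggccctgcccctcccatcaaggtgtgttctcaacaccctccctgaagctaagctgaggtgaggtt
Krt8: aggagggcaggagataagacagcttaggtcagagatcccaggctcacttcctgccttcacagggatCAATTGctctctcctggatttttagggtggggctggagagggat
Krt18: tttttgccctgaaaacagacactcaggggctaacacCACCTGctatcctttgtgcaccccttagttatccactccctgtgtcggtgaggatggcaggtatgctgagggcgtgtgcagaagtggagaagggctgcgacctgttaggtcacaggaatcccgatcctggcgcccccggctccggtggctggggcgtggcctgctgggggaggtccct
Both strands were searched for 3 motifs. CANNTG, which reads as itself on the other strand, occurred in the 250 bases of 5 of the 6 members and in 66.2% of all 32851 promoters of the table. GGGCGG occurred in 1 member, Krt7, with 4 matches, and in 32.7% of all promoters. TATAAA occurred in 0 of the 6 members and in 12.4% of all promoters. Krt19, Upk1b, Msln and Cdh1 had no entry.

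By the length-scaled FPKM, the members spanned a wide range of levels in the Control ovaries. Krt8 had the highest mean level at 22.4 ± 6.08 FPKM (SD, n = 4). Krt18 had 16.6 ± 7.33 FPKM, Krt19 14.2 ± 5.10 FPKM and Upk3b 11.7 ± 3.27 FPKM. These 4 genes encode 3 keratins and a uroplakin. Upk1b had 7.20 ± 2.33 FPKM, Msln 4.05 ± 1.20 FPKM, Cdh1 2.84 ± 1.96 FPKM and Krt7 2.54 ± 1.06 FPKM. The lowest levels were those of Lrrn4, 1.64 ± 0.580 FPKM, and of Muc16, 0.660 ± 0.170 FPKM, and only between Lrrn4 and Muc16 did the ranges of 2 neighbours in this order not overlap. Whether neighbours in the order differ was not tested, and the order depends on the gene length by which each FPKM was divided.

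Across the ovaries of the study, 9 of the 10 genes varied together, ovary by ovary, and more between ovaries of 1 group than between groups. Aged 33 had almost none of these transcripts, apart from Krt8. Control 31 was the lowest of the Control ovaries for 10 of 10 members, Aged 33 the lowest of the Aged ovaries for 10 of 10, and Aged+CF 34 the lowest of the Aged+CF ovaries for 10 of 10. Control 33 was the highest of its group for 9 members and Aged 34 of its group for 9. The summed CPM of the 10 members was 131 to 316 in Control, 46.2, 269 and 407 in Aged and 180 to 367 in Aged+CF. CPM are counts scaled to the library size by the TMM method, and they are used from here on to compare ovaries, not genes.

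**Figure D1:**
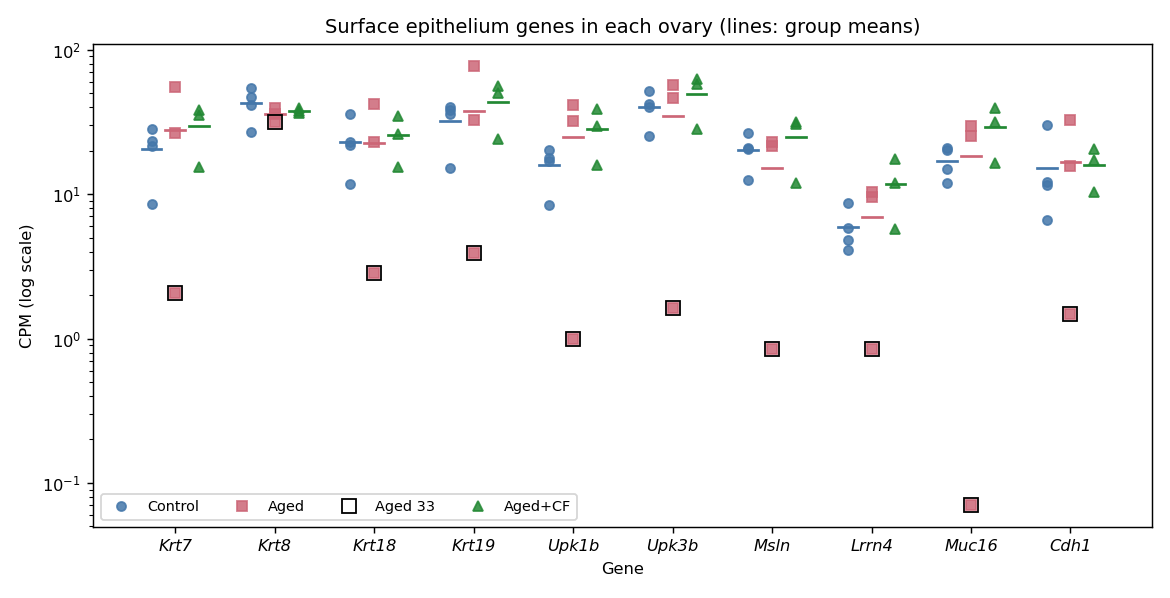
CPM of each surface epithelium gene (log scale) in the 4 Control, 3 Aged and 3 Aged+CF ovaries, with a line at each group's mean and a black frame around Aged 33. Aged 33 lies below the other 9 ovaries for 9 genes, while for Krt8 it lies among them at 31.6 CPM.

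The keratins are the filament proteins that give simple epithelia their strength. Krt7 encodes a type II keratin of ducts and mesothelium, and its level was 8.52, 23.3, 28.4 and 21.6 CPM in Control 31, 32, 33 and 34, 26.4, 2.05 and 55.0 CPM in Aged 31, 33 and 34, and 38.0, 35.4 and 15.3 CPM in Aged+CF 30, 32 and 34. The Aged ovaries held both the lowest and the highest value, so the 3 groups overlapped. Krt19, a small type I keratin, stood in the same ovaries, named in the same sequence, at 15.1, 35.8, 39.8 and 38.0 CPM in Control, 32.7, 3.88 and 77.2 CPM in Aged and 56.5, 50.4 and 24.1 CPM in Aged+CF. Aged 34 was again highest and Aged 33 lowest. Krt18, the type I partner of Krt8, was measured at 11.7, 21.8, 36.0 and 22.8 CPM in Control, 23.0, 2.82 and 42.2 CPM in Aged and 34.9, 26.0 and 15.5 CPM in Aged+CF. In Aged 33, Krt18 stood at 24.2% of the lowest of the other 9 ovaries.

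Krt8 encodes the type II keratin that pairs with keratin 18, and it followed the other members less closely. Like them, it was the lowest of its group in Control 31, Aged 33 and Aged+CF 34. The highest Aged ovary was 1.26-fold the lowest for Krt8, against 12.3-fold or more for the other members. Its level was 27.1, 47.4, 53.9 and 41.5 CPM in Control, 35.8, 31.6 and 39.7 CPM in Aged and 39.3, 37.8 and 36.2 CPM in Aged+CF. Aged 33 lay above Control 31 and had 448 Krt8 reads against 40 Krt18 reads. The 3 Aged+CF ovaries differed by 1.08-fold between the highest and the lowest, where Krt18 differed by 2.25-fold in the same ovaries.

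Uroplakins are membrane proteins best known from the plaques of the bladder lining, and 2 of them are also made by mesothelial cells. Upk3b, a uroplakin of mesothelium, had 25.3, 40.0, 51.9 and 42.0 CPM in Control, 46.2, 1.62 and 56.8 CPM in Aged and 58.0, 63.1 and 28.1 CPM in Aged+CF. The level in Aged 33 rested on 23 reads and was 3.51% of the median of the other 9 ovaries. Upk1b, a tetraspanin, had 8.46, 17.0, 20.1 and 17.7 CPM in Control, 32, 0.988 and 41.2 CPM in Aged and 38.6, 29.7 and 16 CPM in Aged+CF. Aged 31, Aged 34, Aged+CF 30 and Aged+CF 32 exceeded every Control ovary, and Aged+CF 34 and Aged 33 did not. In Aged 33 Upk1b had 14 reads.

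Msln encodes mesothelin, a membrane-anchored protein of mesothelial cells that binds the mucin encoded by Muc16 (CA125). Its level was 12.5, 20.4, 26.7 and 21 CPM in Control, 21.5, 0.847 and 23.0 CPM in Aged and 30.7, 31.8 and 11.9 CPM in Aged+CF. Outside Aged 33, where 12 reads were counted, the range was 2.67-fold at most within a group. Muc16 showed the widest range, with 11.9, 15.0, 20.1 and 21 CPM in Control, 25.4, 0.0705 and 29.8 CPM in Aged and 39.3, 31.4 and 16.4 CPM in Aged+CF. The level in Aged 33 was 1 read, for which the exact 95% Poisson interval reaches 0.393 CPM (counting error only), against a lowest value of 11.9 CPM elsewhere. Lrrn4, a leucine-rich repeat membrane protein of mesothelium, had 4.09, 5.86, 8.72 and 4.82 CPM in Control, 10.4, 0.847 and 9.59 CPM in Aged and 11.9, 17.6 and 5.77 CPM in Aged+CF. Its highest value was in Aged+CF 32, and 4 of the 6 older ovaries exceeded every Control ovary.

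Cdh1 encodes E-cadherin, the adhesion protein of epithelial junctions, which is also found in most other epithelia. Its level was 6.59, 11.5, 29.9 and 12.2 CPM in Control, 15.7, 1.48 and 32.7 CPM in Aged and 20.4, 17.2 and 10.3 CPM in Aged+CF. Control 33 and Aged 34 stood above the other 8 ovaries.

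Both of those ovaries also carried transcripts of the oviduct. Ovgp1, the secreted glycoprotein of the oviduct lining, was at 298 CPM in Control 33 and 245 CPM in Aged 34, at 31.2 CPM in Aged+CF 30 and at 1.28 to 6.36 CPM in the other 7 ovaries. Foxj1, the master regulator of motile cilia, was at 36.7 and 32.3 CPM in Control 33 and Aged 34 and at 0.119 to 1.91 CPM in the other 8. Pax8, a transcription factor of the oviduct lining, was at 2.48 and 4.58 CPM there and at 0 to 0.700 CPM elsewhere. Summed over the 14 oviduct markers, the CPM was 508 and 418 in these ovaries and 58.8 to 92.5 in the others. Of the 10 members, 9 were highest of their group in each of these ovaries, the exceptions being Muc16 in Control 33 and Lrrn4 in Aged 34. Aged 34 stood apart in other markers too. Its oocyte markers summed to 15.2 CPM, against 111 to 642 CPM in the other ovaries, and its leukocyte markers to 195 CPM, against 61.6 to 102 CPM. Its stroma markers summed to 4034 CPM, the highest of the 10 ovaries. The part of the oviduct transcripts, or of these other cells, in the levels of Cdh1 and the keratins was not tested. Without Control 33 and Aged 34, a choice made after seeing the data, 0 of the 10 members were called in any comparison. This held in edgeR at an adjusted and at an unadjusted p under 0.05 with a fold change of at least 1.5. The share of all tested genes called in that fit was not counted, so this count cannot be set against a general rate. Aged 31 and Aged 33 were the only Aged ovaries left in it.

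**Figure D2:**
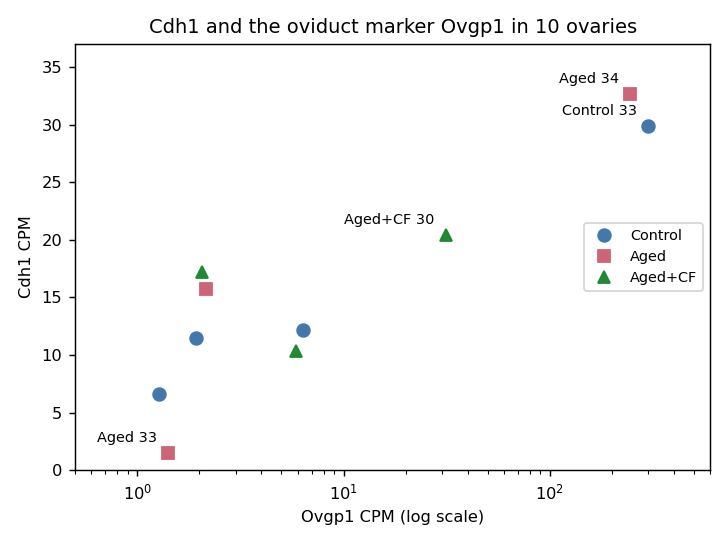
Cdh1 CPM against Ovgp1 CPM (log scale) in the 10 ovaries, by group. Control 33 and Aged 34 have the highest values of both genes, and Aged 33 has the lowest Cdh1 at 1.48 CPM.

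The likeness of the members was measured over the 10 ovaries as the correlation of log2 CPM with that of Upk3b. For the 8 members other than Krt8, Pearson's r was 0.93 to 1.0 and Spearman's rho 0.89 to 0.98, with permutation p values of 1e-05 (the smallest that 100000 permutations can give) to 0.0013 and Benjamini-Hochberg adjusted values of at most 0.00144 over the 9 relations. Msln followed Upk3b most closely (r = 1.0). For Krt8, r was 0.48 (permutation p = 0.21) and rho 0.45 (permutation p = 0.19, adjusted p = 0.192). Aged 33 stands far from the other ovaries and weighs on r, so r was computed again without the 2 ovaries farthest from the median, Aged 33 and Control 31. It was then 0.73 (Cdh1) to 0.95 (Msln) for the 8 members and 0.11 for Krt8. Without Aged 33 alone, r was 0.84 (Cdh1) to 0.97 (Msln) for the 8 members and 0.53 for Krt8. No permutation p was computed with fewer ovaries. All libraries share the same scaling, and the members were chosen as genes of 1 cell type, so some likeness was expected in advance. Upk3b was chosen as the reference after seeing the values.

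**Figure D3:**
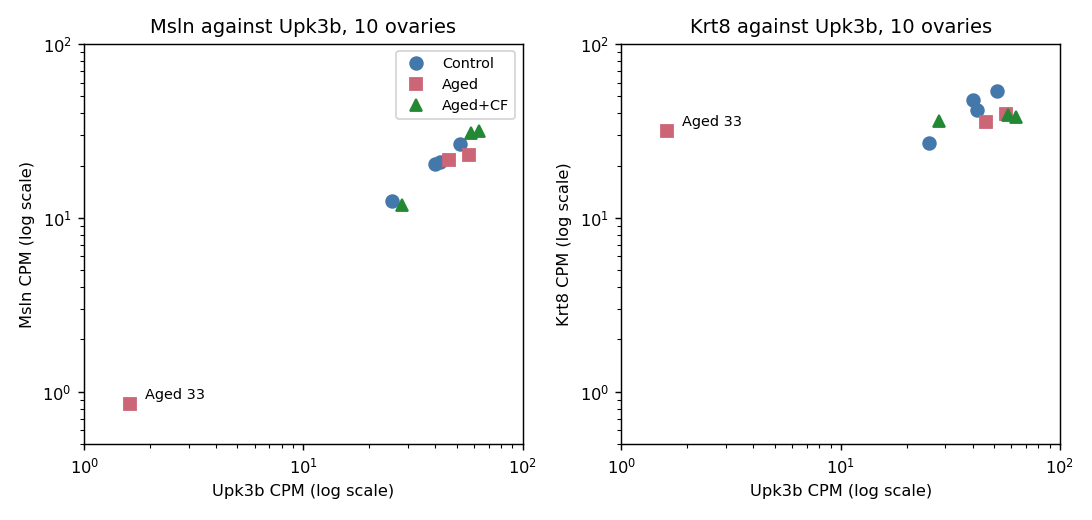
CPM of Msln (left) and Krt8 (right) against CPM of Upk3b in the 10 ovaries, log scales on both axes, by group. The Msln points lie along a line down to Aged 33 at 0.847 CPM, while Krt8 in Aged 33 stays at 31.6 CPM.

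The genes most alike to the members were Megf6, Hsd17b2, Chst4, Epcam and Epn3, the 5 tested genes outside the list with the highest correlation with the mean of the members' standardized log2 CPM over the 10 ovaries (r = 0.989, 0.988, 0.985, 0.985 and 0.983). Hsd17b2 encodes an enzyme that inactivates estradiol and testosterone, Chst4 a sulfotransferase, Epcam the epithelial cell adhesion molecule, Epn3 an epsin of endocytosis and Megf6 a protein with EGF-like repeats. Without Aged 33, r of these 5 genes was 0.932 to 0.968 over 9 ovaries. Epcam had 8.05 to 23.0 CPM in Control, 24.5, 1.13 and 48.8 CPM in Aged 31, 33 and 34 and 17.1 to 39.3 CPM in Aged+CF. Chst4 had 1 read in Aged 33 and 2.1 to 8.77 CPM in the other 9 ovaries. The rule used the values of all 10 ovaries, so these likenesses are a description.

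Aged 33 was then set against the other ovaries over all tested genes. Of the 10 members, 8 lay in Aged 33 below 25% of the lowest of the other 9 ovaries, a limit chosen after seeing the values, where 1.09% of all tested genes did. Krt19 lay just above the limit at 25.7%, and Krt7 just below it at 24%. Krt8 stood at 117% of the lowest of the others. Of the 20 other mesothelial and surface epithelium genes, 2 met the limit. They were Bnc1 (basonuclin, 1.48 CPM against 8.35 CPM or more elsewhere) and Pkhd1l1 (2.33 CPM against 11.9 CPM or more). Among 20 cadherin, catenin and junction genes, the 2 were Epcam and Cldn7, an epithelial claudin with 2 reads in Aged 33. Aged 33 was also the lowest of the 10 ovaries for 11 of the 20 other mesothelial and surface epithelium genes, 11 of the 20 junction genes and 4 of 5 stroma markers, where it was the lowest for 22.7% of all tested genes. Wt1, a transcription factor of mesothelium and granulosa cells, stood at 17.4 CPM in Aged 33 against 42.2 CPM or more elsewhere. The stroma markers summed to 1330 CPM in Aged 33 and to 2361 to 4034 CPM in the others. Foxl2, a transcription factor of granulosa cells, stood at 351 CPM in Aged 33 and at 248 to 443 CPM in the others, and theca and luteal markers summed to 32900 CPM in Aged 33, the highest of the 10 ovaries. What part these have in the low values of the members was not tested.

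The first comparison asks what changed with age. In Aged vs Control, 0 of 10 members were called at an edgeR adjusted p under 0.05 with a fold change of at least 1.5, where 11.1% of the tested genes were called. At the unadjusted p under 0.05 with the same fold, 0 of 10 members were called, where 18.2% of the genes were. DESeq2's Wald test also called 0 members at either rule, and its share over all tested genes was not counted in any comparison. By edgeR, 0 members had an unadjusted p under 0.05 at any fold, where 5983 of the 18956 tested genes did. The groups overlapped in CPM for all 10 members, where 27.5% of the tested genes did not overlap. The median log2 fold change of the members was 0.13, beside -0.00 over all tested genes, and 6 of 10 were positive. Upk1b had the highest value, 0.65 (standard error of the log2 fold change, SE, 0.79; edgeR adjusted p = 0.620), with a 95% interval of -1.10 to 2.40. Msln had the lowest, -0.41 (SE 0.74, edgeR adjusted p = 0.756), with an interval of -2.06 to 1.25. Krt8 was the most precise, at -0.25 with an SE of 0.20 and an interval of -0.69 to 0.19. The intervals of the other members therefore allowed a fall as well as a rise of more than 2-fold.

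For 9 of the members the SE was lower without Aged 33. The log2 fold change of Upk1b was then 1.24 (SE 0.37), a fold of 2.36, with an edgeR unadjusted p of 0.00918 and an adjusted p of 0.0629, and Upk1b was the single member of 10 called at the unadjusted p, where 17.2% of all tested genes were called in that fit. Krt7 stood at 1.01 (edgeR adjusted p = 0.208), Lrrn4 at 0.79, Krt19 at 0.80 and Muc16 at 0.72, and the median over the members was 0.71. Upk3b and Msln stood at 0.40 and 0.17 (edgeR adjusted p = 0.480 and 0.817). Leaving out Aged 34 in its place gave a median of -0.58, Aged 31 -0.07 and Control 31 -0.06, so the direction of the median in Aged vs Control depended on which ovaries were included.

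The second comparison asks what differed after CEFFE. In Aged+CF vs Aged, 0 of 10 members were called at the adjusted p, where 0.00528% of the tested genes were called, and 0 of 10 at the unadjusted p, where 7.96% were. By DESeq2 0 members were called at either rule. By edgeR 0 had an unadjusted p under 0.05, where 3096 of the 18956 tested genes did. CPM overlapped between these groups for 10 of 10 members, where 18.6% of the tested genes did not overlap. The median log2 fold change of the members was 0.19, beside -0.02 over all tested genes, and 9 of 10 values were positive. Lrrn4 had the highest at 0.75 (SE 0.69, edgeR adjusted p = 0.615, 95% interval -0.79 to 2.29), followed by Msln at 0.70 and Muc16 at 0.65. Cdh1 was lowest at -0.07 (SE 0.82). The mostly positive values rested on single ovaries. Without Aged 33 the median was -0.19, Krt7 stood at -0.46 and Upk3b at -0.05. Without Aged+CF 30 the median was 0.00, with Krt7 at -0.14 and Upk1b at -0.13, and without Aged 34 it was 1.03. With the replicate number as a block, although the numbers were not taken as pairs, the median was -0.27.

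In Aged+CF vs Control, 0 of 10 members were called at the adjusted p, where 0.179% of the tested genes were called, and 0 of 10 at the unadjusted p, where 7.69% were. The DESeq2 count was 0 at either rule, and 0 members had an unadjusted edgeR p under 0.05, where 2712 of the 18956 tested genes did. The groups overlapped in CPM for 10 of 10 members, where 21.9% of the tested genes did not overlap. Lrrn4 had a log2 fold change of 1.0 (SE 0.64, edgeR adjusted p = 0.507), Upk1b of 0.83 (SE 0.78) and Muc16 of 0.77 (SE 0.88), and the median over the members was 0.38, beside -0.03 over all tested genes. Aged 33 is in neither group but enters the shared estimate of the spread. When only the Aged+CF and Control ovaries were fitted, Upk1b, Lrrn4 and Muc16 were called at the unadjusted p, with log2 fold changes of 0.85, 1.02 and 0.79, edgeR unadjusted p values of 0.0364, 0.0287 and 0.0291 and adjusted p values of 0.187, 0.167 and 0.168. In that fit 10.5% of all tested genes were called at the unadjusted p. Leaving Aged 33 out of the fit of 3 groups called the same 3 genes (edgeR adjusted p = 0.239, 0.215 and 0.221), where 8.50% of all tested genes were called. Any 2 of the comparisons share a group of ovaries, so their values are not independent of each other.

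**Figure D4:**
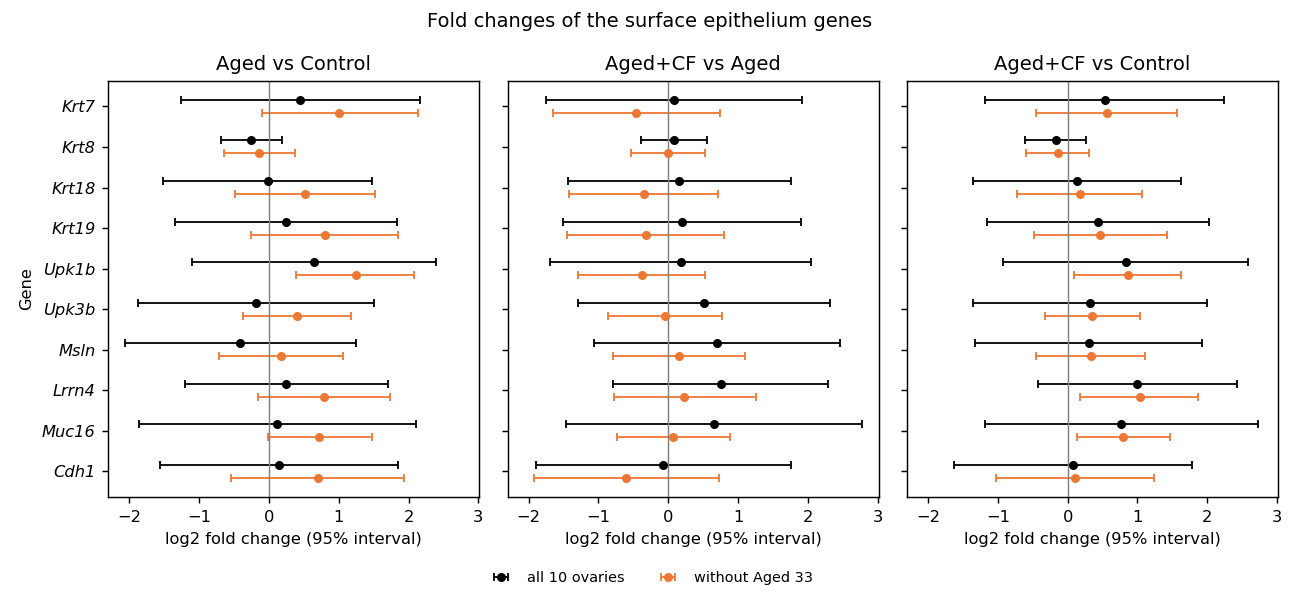
Log2 fold changes of the 10 members in the 3 comparisons, with 95% intervals from the edgeR fit to all 10 ovaries (black) and without Aged 33 (orange). With all ovaries every interval includes 0, and without Aged 33 the interval of Upk1b in Aged vs Control runs from 0.39 to 2.08. In Aged+CF vs Control without Aged 33, the intervals of Upk1b (0.09 to 1.63), Lrrn4 (0.18 to 1.87) and Muc16 (0.13 to 1.47) also lie above 0.

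Since the members varied together, each was also expressed per read of Upk3b in the same ovary, so that a shift shared by both genes cancels. Upk3b was chosen as the reference after seeing the values. The ratio of Msln to Upk3b was nearly constant, with 0.505 ± 0.00984 Msln counts per Upk3b count in Control (SD, n = 4), 0.464 ± 0.0580 in Aged ovaries (n = 3) and 0.485 ± 0.0550 in the Aged+CF ovaries (n = 3). In Aged 33 it was 0.522, from 12 and 23 reads.

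Upk1b and Lrrn4 took larger ratios in the older mice. Upk1b counts per Upk3b count were 0.334, 0.424, 0.387 and 0.421 in Control 31, 32, 33 and 34, 0.693, 0.609 and 0.726 in Aged 31, 33 and 34, and 0.665, 0.471 and 0.568 in Aged+CF 30, 32 and 34. All 6 older ovaries stood above the 4 Control ovaries. The geometric mean ratio was 1.73-fold higher in Aged and 1.44-fold higher in Aged+CF than in Control. Lrrn4 counts per Upk3b count were 0.161, 0.147, 0.168 and 0.115 in the Control ovaries, 0.225, 0.522 and 0.169 in the Aged ovaries and 0.206, 0.279 and 0.205 in the Aged+CF ovaries. Its ratio was 1.85-fold higher in Aged and 1.56-fold higher in Aged+CF than in Control, without overlap. Aged 34 and Control 33 were as close as 0.169 and 0.168. The fold in Aged leans on Aged 33, whose ratio of 0.522 rests on 12 Lrrn4 and 23 Upk3b reads. Aged 31 and Aged 34 stood lower, at 0.225 and 0.169. Ratios to Upk3b higher without overlap were found in 2.15% of the tested genes in Aged vs Control and in 0.797% in Aged+CF vs Control. Upk3b itself ran from 1.62 to 63.1 CPM, so the ratio of any gene that does not follow it spreads widely. The members do follow it, so these shares are not a like background for them. For Upk1b and Lrrn4, the two-sided exact permutation p was 0.0286 in each of these 4 tests, the smallest that 3 against 4 ovaries allow, and the Benjamini-Hochberg value over the 27 ratio tests made was 0.193, so none passed the correction. Between Aged+CF and Aged the Upk1b ratio was 0.835-fold (exact permutation p = 0.20, the smallest for 3 against 3 being 0.1), and the groups overlapped.

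**Figure D5:**
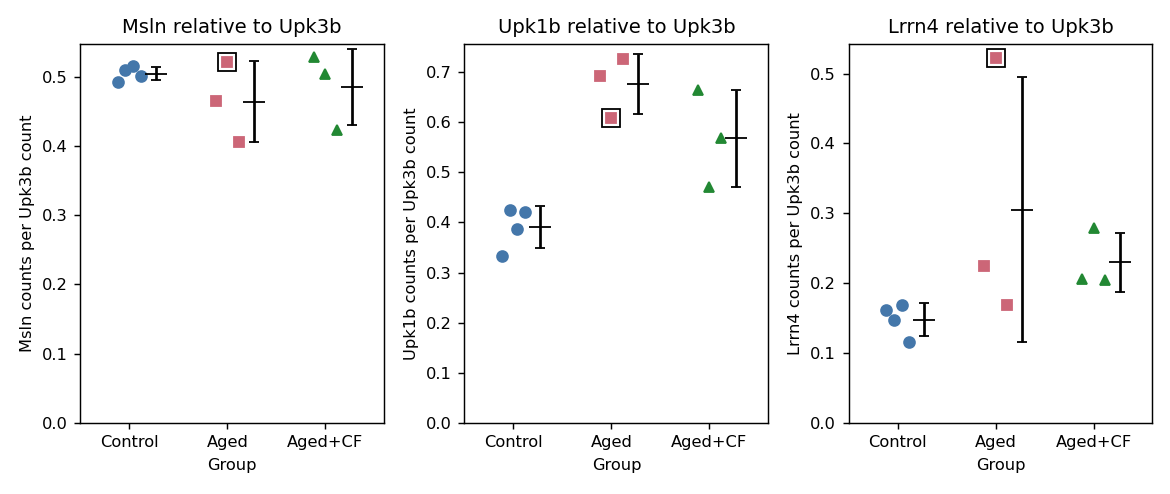
Counts of Msln, Upk1b and Lrrn4 per Upk3b count in each ovary by group, with the mean and SD beside the points and a black frame around Aged 33. Msln stays between 0.406 and 0.529 in every ovary, while Upk1b stands at 0.334 to 0.424 in Control and at 0.471 to 0.726 in the older mice.

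The other 7 ratios overlapped between the groups in all 3 comparisons. Krt7 counts per Upk3b count were 0.336 to 0.582 in Control and 0.572, 1.26 and 0.968 in Aged 31, 33 and 34 (exact permutation p = 0.0571, adjusted p = 0.309). Krt8 counts per Upk3b count were 0.987 to 1.19 in Control and 0.599 to 1.29 in Aged+CF, and in Aged 33 the ratio reached 19.5. Cdh1 counts per Upk3b count were 0.577 in Control 33 and 0.576 in Aged 34, the ovaries with oviduct markers, against 0.260 to 0.291 in the other Control ovaries. Muc16 had a ratio of 0.0435 in Aged 33, against 0.376 to 0.677 in the other 9 ovaries.

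Genes of the same tissue and pathways were counted from lists written with results of these data known. Of the 20 other mesothelial and surface epithelium genes, 1 rose in Aged vs Control at the adjusted p and 0 fell, and the median log2 fold change was 0.41. The gene was Efemp1, a matrix fibulin. It stood at 41.3, 37.2, 47.5 and 40.7 CPM in Control, 176, 304 and 211 CPM in Aged and 158, 235 and 147 CPM in Aged+CF, so that the log2 fold change of Aged vs Control was 2.47 (SE 0.21, edgeR adjusted p = 0.00162) and that of Aged+CF vs Aged -0.35 (edgeR adjusted p = 0.450). It was highest in Aged 33, the ovary with the fewest member transcripts. Lgr5, a receptor that marks progenitors of the mouse surface epithelium, stood at 35.2 ± 6.27 CPM in Control (n = 4), 55.8 ± 14.4 CPM in Aged (n = 3) and 86.2 ± 22.7 CPM in Aged+CF (n = 3). Aged vs Control gave a log2 fold change of 0.67 (edgeR adjusted p = 0.0744), and Aged+CF vs Aged gave 0.63 (edgeR adjusted p = 0.258).

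Of the 14 other keratin genes 4 passed the filter, and 1, Krt20, fell in Aged vs Control, from 3.72 ± 0.832 CPM to 1.44 ± 0.634 CPM (log2 fold change -1.36, edgeR adjusted p = 0.0311). That call was lost with the replicate number as a block (edgeR adjusted p = 0.0713) and when only the 2 groups were fitted (0.0607). Of the 8 other uroplakin and membrane mucin genes 2 passed the filter and 0 were called by edgeR in any comparison, with 0 at an unadjusted p under 0.05 and 0 by DESeq2. The uroplakins and keratins of stratified epithelia were thus mostly too low to test, and 5 of the 14 keratins had at most 3 counts in every ovary.

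Of the 20 cadherin, catenin and junction genes, 2 fell in Aged vs Control and 0 rose. Dsp, the desmosome protein desmoplakin, stood at 149, 175, 129 and 137 CPM in Control, 78.3, 72.2 and 42.8 CPM in Aged and 104, 93.2 and 112 CPM in Aged+CF, without overlap of Aged with either group. The log2 fold change of Aged vs Control was -1.20 (SE 0.20, edgeR adjusted p = 0.00748), and that of Aged+CF vs Aged was 0.68 (edgeR adjusted p = 0.192). Cdh2, N-cadherin, stood at 73.0 ± 3.37 CPM in Control, 42.1 ± 6.60 CPM in Aged and 66.0 ± 9.35 CPM in Aged+CF, with log2 fold changes of -0.79 (edgeR adjusted p = 0.00680) and 0.65 (edgeR adjusted p = 0.151). Granulosa cells also make both of these proteins, and their part in the change was not tested. Of 17 tested regulators of the epithelial and mesenchymal state, 1 fell in Aged vs Control. This was Esrp1, a splicing regulator of epithelia, at 15.1 ± 1.96 CPM in Control, 3.67 ± 1.70 CPM in Aged and 6.39 ± 0.984 CPM in Aged+CF (log2 fold change -2.03, edgeR adjusted p = 0.00580). The part of other cell types in the change of Esrp1 was not tested. With the replicate block, the adjusted p of Dsp, Cdh2 and Esrp1 was 0.0667, 0.0593 and 0.0616. In Aged+CF vs Aged, 0 genes of these 5 lists passed the adjusted call by edgeR, and by DESeq2 1 did, Cdh2.

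The other cell types of the ovary were followed by their own markers, in Aged vs Control at the edgeR adjusted call. Of 12 oocyte markers 11 fell and 0 rose, with a median log2 fold change of -2.52. Of the 6 theca and luteal markers 5 rose, and of the 5 leukocyte markers 3 rose. Of 8 granulosa cell markers 0 were called, with 4 at an unadjusted p under 0.05 and 2 called by DESeq2. Of the 11 oviduct markers tested, of the 5 stroma markers and of the 4 adipocyte markers, 0 were called, 0 had an unadjusted p under 0.05 and 0 were called by DESeq2. Their part in the levels of the 10 members was not tested.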

How the data were processed

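RNA of 10 whole mouse ovaries was measured by RNA-seq, and the groups follow the labels. Per the labels, reads were processed with TopHat, Cufflinks 2.1.1 and GRCm38.p4; the annotation, the counting tool and the use of strand are not given in the sources used here. Unnormalized counts of reads on each gene (15761789 to 21318254 per ovary) were deposited by the authors, and so were FPKM values, which equal the count divided by gene length and by the total. Counts were tested with edgeR 4.0.16 in R 4.3.3: a filter on low counts (filterByExpr), TMM scaling, and the quasi-likelihood F test, with the 10 ovaries in 1 fit. P values were adjusted by Benjamini and Hochberg's method over 18956 genes. All tests are two-sided. Alternatives left out the filter, took size factors from DESeq2 1.42.0 or its Wald test, or used fold changes of mean CPM, fits of 2 groups, a replicate block or fewer ovaries. Log2 CPM used a prior count of 2, and floors and Poisson intervals cover counting error only.

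The members, the gene lists and the tests were chosen with earlier results of these data known. The genes named are the 10 members, the defining markers Ovgp1, Pax8, Foxj1, Zp3, Gdf9 and Foxl2, up to 3 called genes per list with the largest changes and a mean of at least 1 CPM, and the 5 genes most alike to the members. Of those, Zp3, Gdf9 and the called oviduct, oocyte, granulosa, theca, luteal and leukocyte genes are given as counts only. Wt1, Bnc1, Pkhd1l1 and Cldn7 were named after their values were seen. Identifiers were looked up in GENCODE M21, which holds 55141 of the 55487.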

Additional observations from a re-analysis of the deposited data

Results flagged for a closer look

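In the Control group, the gap of the highest or lowest ovary to its nearest neighbour was tested against the range of the 4 ovaries, a rule by which chance marks about 1 group in 20. Krt19 was marked for its lowest value, 15.1 CPM in Control 31, with a gap of 0.837 of the range. Epn3, a gene alike to the members, was marked for its lowest value in the same ovary, 10.2 CPM (gap 0.904). Control 33 was marked for its highest values of Ovgp1, 298 CPM (gap 0.983), of Foxj1, 36.7 CPM (gap 0.959), and of Cdh1 counts per Upk3b count, 0.577 (gap 0.902). Groups of 3 ovaries are too small for this rule, so Aged 33 was not tested by it.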

How the results depend on the processing

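The count of members called at the adjusted p was 0 in the 3 comparisons under every alternative run. At the unadjusted p, the count in Aged vs Control ranged from 0 to 1 when each ovary was left out, 1 arising without Aged 33, and in Aged+CF vs Control from 0 to 3, 3 arising without Aged 33. It was 3 in Aged+CF vs Control when only the compared groups were fitted. Leaving out Aged 33, Control 33 and Aged 34 together, chosen after seeing the data, gave 1 in Aged vs Control (Upk1b, log2 fold change 1.20) and 3 in Aged+CF vs Control (Upk1b, Lrrn4 and Muc16), where 16.9% and 10.8% of all tested genes were called.

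No filter, DESeq2's size factors, DESeq2's test and mean CPM changed no member's direction. With the replicate block, the direction turned in Aged vs Control for Muc16 (-0.27), in Aged+CF vs Aged for Krt7 (-0.74), Krt8 (-0.12), Krt18 (-0.44), Krt19 (-0.57) and Upk1b (-0.41), and in Aged+CF vs Control for Krt7 (-0.30), Krt18 (-0.51), Krt19 (-0.42), Upk3b (-0.28), Msln (-0.37) and Cdh1 (-0.28). Without Control 33 and Aged 34 it turned in Aged vs Control for Krt7 (-0.27), Krt19 (-0.64), Muc16 (-0.27) and Cdh1 (-0.18), and in Aged+CF vs Aged for Cdh1 (0.86). Without Aged 33 as well it turned in Aged vs Control for Krt18 (0.33), Upk3b (0.41) and Msln (0.30), and in Aged+CF vs Aged for Upk1b (-0.21) and Cdh1 (0.00). The cause was not tested.

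Leaving out each ovary in turn, the log2 fold changes that turned ranged in Aged vs Control from -0.48 to 1.01 (Krt7), -0.80 to 0.52 (Krt18), -0.77 to 0.80 (Krt19), -0.69 to 0.40 (Upk3b), -0.80 to 0.17 (Msln), -0.13 to 0.79 (Lrrn4), -0.37 to 0.72 (Muc16) and -0.77 to 0.72 (Cdh1). In Aged+CF vs Aged they ranged from -0.46 to 1.03 (Krt7), -0.35 to 0.96 (Krt18), -0.32 to 1.23 (Krt19), -0.38 to 0.74 (Upk1b), -0.05 to 1.04 (Upk3b) and -0.60 to 0.86 (Cdh1), and in Aged+CF vs Control from -0.13 to 0.44 (Krt18) and -0.17 to 0.65 (Cdh1). The members' median ranged from -0.58 to 0.71, from -0.19 to 1.03 and from 0.18 to 0.71 in the 3 comparisons.

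The replicate numbers were not taken as pairs of ovaries. The deviations of same-numbered ovaries correlated at -0.185 to 0.153, below 0.1 in 4 of 6 pairs. Whether same-numbered ovaries shared a batch was not tested. The count of called members was 0 both without and with the block, so it could not tell. Krt20 lost its call in Aged vs Control in 6 of 10 fits without 1 ovary. Dsp and Cdh2 kept theirs in those 10 fits, while Cdh2 lost it without Control 33, Aged 33 and Aged 34 (adjusted p = 0.111), and Esrp1 lost it only with the block. With DESeq2, called genes in Aged vs Control numbered 2 of the mesothelial and 2 of the granulosa list. In Aged+CF vs Aged DESeq2 called 1 junction gene (Cdh2, 0.64), 1 oocyte marker and 1 theca or luteal marker, where edgeR called 0. In Aged+CF vs Control it called 2 mesothelial, 2 epithelial state, 1 oocyte, 1 theca or luteal and 2 leukocyte genes, where edgeR called 1 mesothelial gene and 0 of the others. The share of all tested genes called by DESeq2 was not counted, so its counts cannot be set against a general rate. Between 1 and 23 reads in Aged 33 stand behind 6 members, which limits their values there.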
